A study of Mus musculus with 5 samples.

Results

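The 8 genes Nkg7, Ccl5, Ctsw, Klrk1, Xcl1, Eomes, Tbx21 and Id2 are effectors of cytotoxic lymphocytes and regulators of their programme. They were taken from the deposited table by symbol, and all 8 were found among its 2926 mouse genes. They were chosen with earlier results of these data known. Counts of members set beside shares of all genes are therefore descriptions and no independent test. The cells came from the injured side of the brain of wild-type C57BL/6 mice, killed 14 days after a photothrombotic stroke, in which light-activated dye clots cortical vessels. Cells positive for CD45 and CD3 had been sorted singly into plates for SORT-seq, a plate-based single-cell RNA sequencing method. The trained group (3 samples with 66, 124 and 168 cells) had access to running wheels from day 2, and the untrained group (2 samples with 144 and 190 cells) had none. Every group carried the stroke, and mice without one were not analysed here. The labels do not say whether a sample was 1 mouse or a pool. For training, p-values measure the spread between samples. Between classes, with sample as a block, they measure how the class difference varied over samples. Either spread may be technical.

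The deposited values are scores and not counts. They ran from -2.12 to 3.74, 72.9% lay below 0 and 0 were whole numbers, so each value says how far a cell stood from that gene's own baseline. All comparisons are therefore differences of scores. The depth is unknown, no fold change can be formed, and levels of different genes cannot be ranked. Each mean below is the average of 5 sample means with the SD between samples unless another n is given. Cells were divided by coreceptor score: a cell was CD8-gated where the average of its Cd8a and Cd8b1 scores exceeded 0 while its Cd4 score did not, and CD4-gated in the reverse case. The remaining cells lay below both gates or above both.

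As background, cytotoxic T cells and natural killer cells kill by releasing granules onto a target and recruit other immune cells with chemokines. Nkg7 encodes a membrane protein of cytotoxic granules, Ctsw the protease cathepsin W of the same cells, and Ccl5 and Xcl1 encode chemokines, Xcl1 acting on cross-presenting dendritic cells. Klrk1 encodes the activating receptor NKG2D, which reads stress ligands on target cells. Eomes and Tbx21 (T-bet) are T-box transcription factors that drive effector genes and cytotoxic fate. Id2 has no DNA-binding domain of its own and acts by holding E proteins, which bind E-box sequences, away from DNA.

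Promoter sequences are shown for the 3 members that held the core of a T-box or RUNX site, since Eomes and Tbx21 are members of the first factor family and Runx3 acts with them in CD8 T cells. RefSeq promoters (GRCm38.p6, 250 bases before to 50 after the start, gene strand) matched 6 of the 8 members; Ccl5 and Ctsw were not matched. Capitals mark the T-box core GGTGTGA and the RUNX core TGTGGTT, each searched on both strands, and no 2 of them overlapped.
Nkg7, chr7:43436888-43437187, plus strand: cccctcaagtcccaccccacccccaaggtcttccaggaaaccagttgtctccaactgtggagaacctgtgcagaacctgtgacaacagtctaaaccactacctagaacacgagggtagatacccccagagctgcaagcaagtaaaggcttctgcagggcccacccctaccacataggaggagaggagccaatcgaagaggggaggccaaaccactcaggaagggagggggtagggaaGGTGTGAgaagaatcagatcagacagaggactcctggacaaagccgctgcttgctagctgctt
Klrk1, chr6:129623815-129624114, minus strand: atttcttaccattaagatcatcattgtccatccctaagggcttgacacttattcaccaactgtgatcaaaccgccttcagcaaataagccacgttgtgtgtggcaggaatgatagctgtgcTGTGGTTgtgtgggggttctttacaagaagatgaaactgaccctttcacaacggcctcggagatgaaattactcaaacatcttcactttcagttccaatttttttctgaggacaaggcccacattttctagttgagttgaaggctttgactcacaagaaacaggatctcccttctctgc
Xcl1, chr1:164935473-164935772, minus strand: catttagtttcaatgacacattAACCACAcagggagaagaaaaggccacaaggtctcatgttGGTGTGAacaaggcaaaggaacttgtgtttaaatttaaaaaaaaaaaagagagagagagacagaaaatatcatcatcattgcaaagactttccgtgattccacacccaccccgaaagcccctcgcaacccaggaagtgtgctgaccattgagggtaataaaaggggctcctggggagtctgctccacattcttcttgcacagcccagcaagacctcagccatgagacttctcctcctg
In Nkg7 the T-box core began 13 bases before the start, written as position -13. In Xcl1 it began at -188, and a RUNX core on the reverse strand (AACCACA) began at -228. In Klrk1 the RUNX core began at -129. Of 32851 promoters of this length, 3.98% held the T-box core and 5.27% the RUNX core. The promoters of Eomes (chromosome 9), Tbx21 (chromosome 11) and Id2 (chromosome 12) held neither. The E-box CANNTG occurred in Nkg7, Klrk1, Tbx21 and Id2, as in 72.3% of all promoters. These are matches of letters and say nothing about binding in these cells.

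Of the 692 cells, 159 (23.0%) were CD8-gated, 146 (21.1%) CD4-gated, 330 (47.7%) below both gates and 57 (8.24%) above both. Of 14 T cell markers 11 were measured. The mean over these markers was above 0 in both gated classes in every sample, from 0.0609 to 0.219 in CD8-gated and from 0.0822 to 0.405 in CD4-gated cells. In cells below both gates it lay from -0.181 to -0.103, and 0 of the 11 markers had a mean above 0. The mean over all mouse genes was also low there, at -0.0875 ± 0.0216, against 0.0202 ± 0.0285 in CD8-gated cells and 0.0461 ± 0.0430 in CD4-gated cells. Cd3e was above 0 in 97 of these 330 cells (29.4%), in 61.0% of CD8-gated and in 59.6% of CD4-gated cells. As scores are relative, these values do not show which cells lacked CD3. Below both gates lay 127 of the 175 cells high in the noncoding transcripts Kcnq1ot1 and A630089N07Rik, and 42 of the 56 cells high in macrophage markers, 36 of them from untrained 2. Of 12 natural killer cell markers only Tyrobp and Fcer1g were measured, and none of 8 gamma delta or innate-like T cell markers, so those lymphocytes cannot be told from others. In untrained 2 the highest value of 6 members stood at a cap of 2.52 and the mean of Eomes and Tbx21 was 0 within 1e-06. No member did so in another sample.

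Nkg7, Ctsw and Ccl5 were higher in CD8-gated than in CD4-gated cells, and the other effectors ran the same way without passing the test. Nkg7 averaged 0.496 ± 0.153 in CD8-gated cells and -0.0272 ± 0.0772 in CD4-gated cells. Ccl5 averaged 0.650 ± 0.267 in CD8-gated cells and -0.00933 ± 0.180 in CD4-gated cells. Ctsw averaged 0.306 ± 0.119 in CD8-gated cells and -0.0882 ± 0.116 in CD4-gated cells. With limma on the sample means (sample as a block, Benjamini-Hochberg over 2923 genes), the differences were 0.523 ± 0.071 for Nkg7 (SE, adjusted p = 0.00653), 0.659 ± 0.104 for Ccl5 (adjusted p = 0.0131) and 0.394 ± 0.063 for Ctsw (adjusted p = 0.0131). By size of the difference they stood 2nd, 1st and 4th among the 2923 genes. These 3 of the 8 members compare with 0.171% of all genes called (5 genes), the other 2 being Ly6c2, higher, and Ctsb, a lysosomal protease named after its value was seen, lower in CD8-gated cells. Left out in turn, trained 1 ended all 3 calls, trained 2 left Nkg7 alone, and trained 3 left Nkg7 and Ccl5. None of the 3 passed with medians over cells or without the cells high in macrophage markers.

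In single samples, Nkg7 stood at 0.426, 0.653 and 0.519 in the CD8-gated cells of trained 1, 2 and 3 and at 0.272 and 0.611 in those of untrained 1 and 2. In CD4-gated cells it stood at 0.0471, 0.0308 and -0.112 in the trained samples and at 0.00664 and -0.108 in the untrained samples. The lowest CD8-gated sample, untrained 1, thus lay above the highest CD4-gated one. Ccl5 had the widest spread, with 0.560, 0.819 and 0.604 in trained and 0.283 and 0.982 in untrained CD8-gated cells, against 0.106, 0.160 and -0.179 in trained and 0.0939 and -0.228 in untrained CD4-gated cells. Its gap between the classes ran from 0.189 in untrained 1 to 1.21 in untrained 2. The samples differ in scale: the SD between cells of the median gene was 0.370 in untrained 1 and 0.728 in untrained 2, and 0.429 to 0.515 in the trained samples. Ctsw gave 0.176, 0.413 and 0.344 in trained and 0.183 and 0.414 in untrained CD8-gated cells, and its highest CD4-gated sample, trained 2, had 0.0566. For all 3 genes the 5 CD8-gated means did not overlap the 5 CD4-gated means.

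The receptor, the second chemokine and the T-box factors gave smaller differences. Xcl1 was 0.132 ± 0.175 in CD8-gated cells and -0.208 ± 0.125 in CD4-gated cells (difference 0.340 ± 0.076, SE, limma adjusted p = 0.106). Klrk1 was 0.0783 ± 0.126 in CD8-gated cells and -0.249 ± 0.127 in CD4-gated cells (difference 0.328 ± 0.081, adjusted p = 0.131). Eomes was 0.165 ± 0.0974 in CD8-gated cells and -0.0718 ± 0.0901 in CD4-gated cells (difference 0.237 ± 0.065, adjusted p = 0.172). For these 3 genes too the sample means of the classes did not overlap, which makes 6 of 8 members, against 1.30% of all genes with a higher CD8-gated range. Those 6 were higher in CD8-gated cells in 5 of 5 samples, as were 4.45% of all genes. Tbx21 gave a difference of 0.126 ± 0.060 (adjusted p = 0.382) and was higher in 4 of 5 samples.

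For Id2 the gap between the gated classes was smaller than its SE. Id2 averaged 0.147 ± 0.0995 among CD8-gated and 0.141 ± 0.147 among CD4-gated cells. The fitted gap was 0.006 ± 0.076 (limma adjusted p = 0.982), and CD8-gated cells were the higher ones in 3 of 5 samples. The CD4-gated value of untrained 2, 0.401, lay far above the other 4 samples, which ran from 0.0396 to 0.108. The median difference over the 8 members was 0.334, against -0.0270 over all genes.

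**Figure D1:**
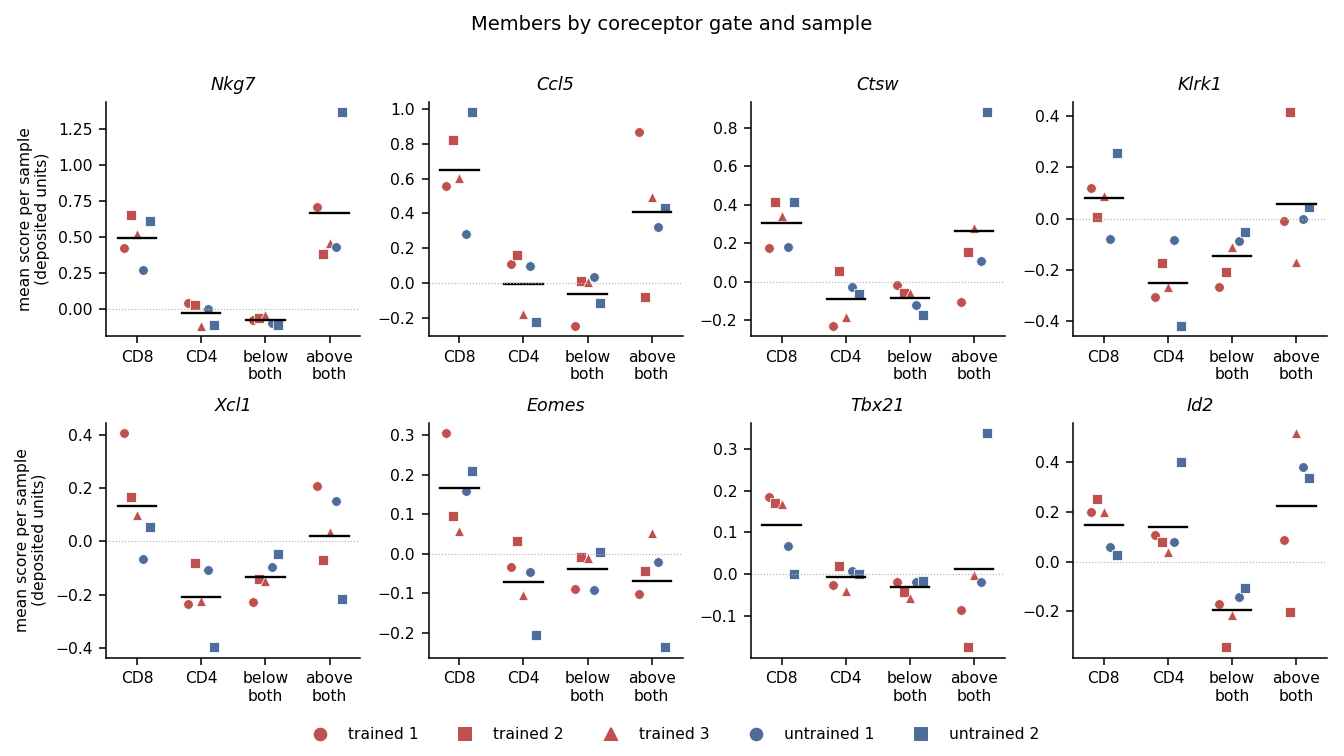
Mean score of each member in each sample (vertical axes, deposited units, scaled separately for each gene) by coreceptor gate, with trained samples in red, untrained in blue and the mean of the 5 samples as a black line. Nkg7, Ccl5 and Ctsw stand highest in CD8-gated cells and those above both gates, while Id2 is about level in CD8-gated and CD4-gated cells and lowest below both gates.

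The shares of cells with a score above 0 gave the same picture with cells counted once each. Nkg7 was above 0 in 65.4% of CD8-gated and 38.4% of CD4-gated cells, Ccl5 in 65.4% of CD8-gated and 37.0% of CD4-gated cells, and Ctsw in 57.9% of CD8-gated and 34.9% of CD4-gated cells. Klrk1 had the lowest share in CD4-gated cells, 9.59%, against 31.4% in CD8-gated cells. The median CD8-gated cell was above 0 for Nkg7 (0.374), Ccl5 (0.638) and Ctsw (0.106) and below 0 for the other 5 members. For Klrk1, Xcl1, Eomes and Tbx21 the higher CD8-gated mean thus rested on a minority of cells: scores above 1 were found in 13.8%, 15.1%, 13.8% and 10.7% of CD8-gated cells. In CD4-gated cells those shares were 2.05% for Klrk1, 1.37% for Xcl1, 2.05% for Eomes and 3.42% for Tbx21. No counts lie behind these scores, so a score above 0 is not a detected transcript.

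Nkg7, Ccl5 and Ctsw were all above 0 in the same cell in 63 of 159 CD8-gated cells (39.6%, 95% Wilson interval 32.4 to 47.4%) and in 25 of 146 CD4-gated cells (17.1%, interval 11.9 to 24.1%). The intervals cover counting error only. By sample the share ran from 17.6% in trained 1 to 52.9% in trained 2 among CD8-gated cells and from 10.3% in trained 3 to 25.7% in untrained 1 among CD4-gated cells. The ranges of the classes thus overlapped across samples. Within every sample the CD8-gated share was the higher one, by least in trained 1 (17.6% against 12.5%). In the 25 CD4-gated cells Cd4 averaged 0.665 and Id2 0.605, while Klrk1 averaged -0.193. The other 121 CD4-gated cells averaged 0.948 for Cd4, 0.0393 for Id2 and -0.240 for Klrk1. The 25 cells were chosen by 3 members, so their means are a description. Id2 rose with the mean over all genes of a cell (r of 0.530 over all sorted cells), and the part of that level was not tested.

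All 8 members were higher in CD8-gated cells than in cells below both gates. The differences were 0.713 ± 0.085 for Ccl5, 0.571 ± 0.057 for Nkg7, 0.392 ± 0.057 for Ctsw and 0.343 ± 0.062 for Id2. Xcl1 gave 0.264 ± 0.070, Klrk1 0.223 ± 0.056, Eomes 0.205 ± 0.054 and Tbx21 0.149 ± 0.050 (SE, limma adjusted p from 9.61e-06 for Nkg7 to 0.0306 for Tbx21). This count stands against a background of 37.2% of genes called and 34.3% called higher, with a median of 0.0994 over all genes, and the mean over all mouse genes was itself higher in CD8-gated cells (0.0202 ± 0.0285) than below both gates (-0.0875 ± 0.0216). With each cell's own mean subtracted, which brought the median of all genes to -0.00829, Nkg7, Ccl5, Ctsw and Id2 still passed and the other 4 did not. In that setting 415 of 2923 genes were called, 226 of them higher. The same 4 passed without the cells high in the noncoding transcripts, where 278 of 2923 genes were called, 273 of them higher. The Tbx21 call was lost without trained 1, trained 2, trained 3 or untrained 1 (adjusted p from 0.0515 to 0.134), and that of Xcl1 without trained 2 (difference 0.253, adjusted p = 0.0531). Without trained 1 the Xcl1 difference was 0.172 (adjusted p = 0.0450). With medians over cells Nkg7 and Ccl5 passed, beside 190 of 2923 genes called.

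Between CD4-gated cells and cells below both gates Id2 was the 1 member past the threshold. Id2 averaged 0.141 ± 0.147 in CD4-gated cells and -0.196 ± 0.0917 below both gates (difference 0.337 ± 0.054, SE, limma adjusted p = 0.000616) and was higher in 5 of 5 samples, as were 55.4% of all genes. The other 7 members gave differences from -0.104 for Klrk1 to 0.0545 for Ccl5, and Ctsw gave -0.00224. Among all genes 56.8% were called and 53.1% were called higher, with a median of 0.136, so 1 of 8 is below the background. With each cell's mean subtracted the median of all genes was 0.00213. Klrk1, Xcl1 and Eomes were then lower in CD4-gated cells than below both gates (limma adjusted p = 0.0138, 0.0273 and 0.0447), and Id2 remained higher. In that setting 460 of 2923 genes were called, 248 higher and 212 lower. Klrk1 was also lower once the cells high in the noncoding transcripts were left out, where 523 of 2923 genes were called, 9 of them lower.

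**Figure D2:**
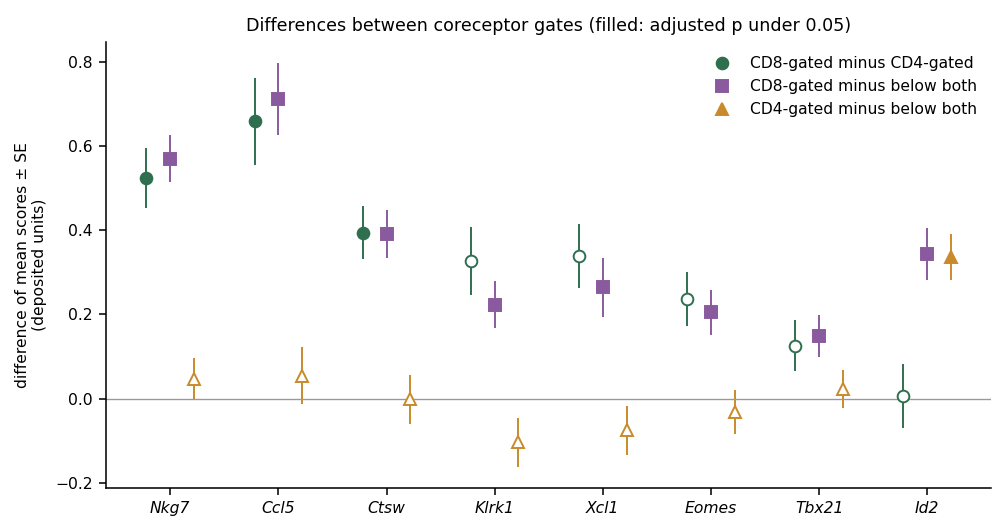
Fitted differences of mean scores between coreceptor gates for each member, in deposited units, with bars of 1 SE and filled symbols where the limma adjusted p was under 0.05. The CD8-gated cells stand above the CD4-gated cells most for Ccl5 and Nkg7, and Id2 separates both gated classes from the cells below both gates.

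Cells below both gates were not uniform. Nkg7, Ccl5 and Ctsw were all above 0 in 40 of them (12.1%, Wilson interval 9.03 to 16.1%), from 8.0% in trained 1 to 16.5% in trained 3. Those 40 cells averaged 0.713 for Xcl1, 0.451 for Klrk1, 0.324 for Eomes and 0.366 for Id2, against -0.221, -0.189, -0.0717 and -0.254 in the other 290 cells. Medians in the 40 cells were 0.498 for Xcl1, 0.108 for Klrk1, -0.113 for Eomes and 0.163 for Id2. The Eomes mean thus rested on a minority, with 40.0% of the cells above 0. These values pool cells over samples of unlike scale, and 11 of the 40 cells came from untrained 2. Tbx21 averaged -0.0270 in the 40 cells and -0.0310 in the other 290. The same 40 cells averaged 0.728 for Klrd1, which encodes the CD94 chain of natural killer receptors, 0.405 for Cd3e, 0.636 for Thy1 and 0.336 for Fcer1g, a signalling adaptor of natural killer and myeloid cells. Tyrobp, the other measured natural killer marker and also an adaptor, averaged -0.0205 in the 40 cells and -0.0670 in the other 290. The macrophage genes Cst3 (-0.224) and C1qb (-0.228) were below 0 in the 40 cells. Cd8b1 was above 0 in 15.0% of the 40 cells and in 0.690% of the other 290, and Cd8a in 7.50% and 4.83%. The cells were chosen by 3 members, so these means are a description without a test. Over all sorted cells these 3 members also rose with the mean over all genes of a cell (r of 0.596 for Nkg7, 0.520 for Ccl5 and 0.502 for Ctsw). The part of that level in the means of the 40 cells was not tested.

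When cells were restricted to a Cd3e score above 0 in every class (a choice made after the data were seen), 97 CD8-gated, 87 CD4-gated and 97 cells below both gates remained. Nkg7 averaged 0.794 ± 0.232 in CD8-gated, 0.101 ± 0.0704 in CD4-gated and 0.348 ± 0.199 in cells below both gates. Klrk1 averaged 0.175 ± 0.252 in CD8-gated cells, -0.264 ± 0.154 in CD4-gated cells and 0.188 ± 0.155 below both gates. Xcl1 averaged 0.280 ± 0.230 in CD8-gated cells, -0.182 ± 0.159 in CD4-gated cells and 0.222 ± 0.327 below both gates. For Klrk1 the samples below both gates, from -0.0161 to 0.414, all lay above the CD4-gated samples and overlapped the CD8-gated ones. For Xcl1 they overlapped both: untrained 2 stood at 0.777 and the other 4 samples from -0.0658 to 0.225. Without untrained 2 Xcl1 averaged 0.307 in CD8-gated cells, -0.126 in CD4-gated cells and 0.0834 below both gates, and Klrk1 averaged 0.0694 in CD8-gated cells, -0.223 in CD4-gated cells and 0.132 below both gates. In limma fits on these cells Nkg7 (difference 0.693 ± 0.089, adjusted p = 0.0124) and Ctsw (0.457 ± 0.072, adjusted p = 0.0492) were higher in CD8-gated than in CD4-gated cells. Nkg7 (0.445 ± 0.074, adjusted p = 0.0197) and Ccl5 (0.601 ± 0.138, adjusted p = 0.0354) were higher in CD8-gated cells than below both gates. Of 2923 genes, 2 were called between CD8-gated and CD4-gated cells and 54 between CD8-gated cells and those below both gates. Between CD4-gated cells and those below both gates 0 members passed, with 612 genes at an unadjusted p under 0.05. Klrk1 came nearest at -0.453 ± 0.089 (adjusted p = 0.0769). Fcer1g averaged -0.0511 ± 0.189 in these CD8-gated cells and 0.201 ± 0.238 below both gates, and Tyrobp averaged -0.227 ± 0.119 in CD8-gated cells and -0.00737 ± 0.200 below both gates. Their part in the result was not tested.

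**Figure D3:**
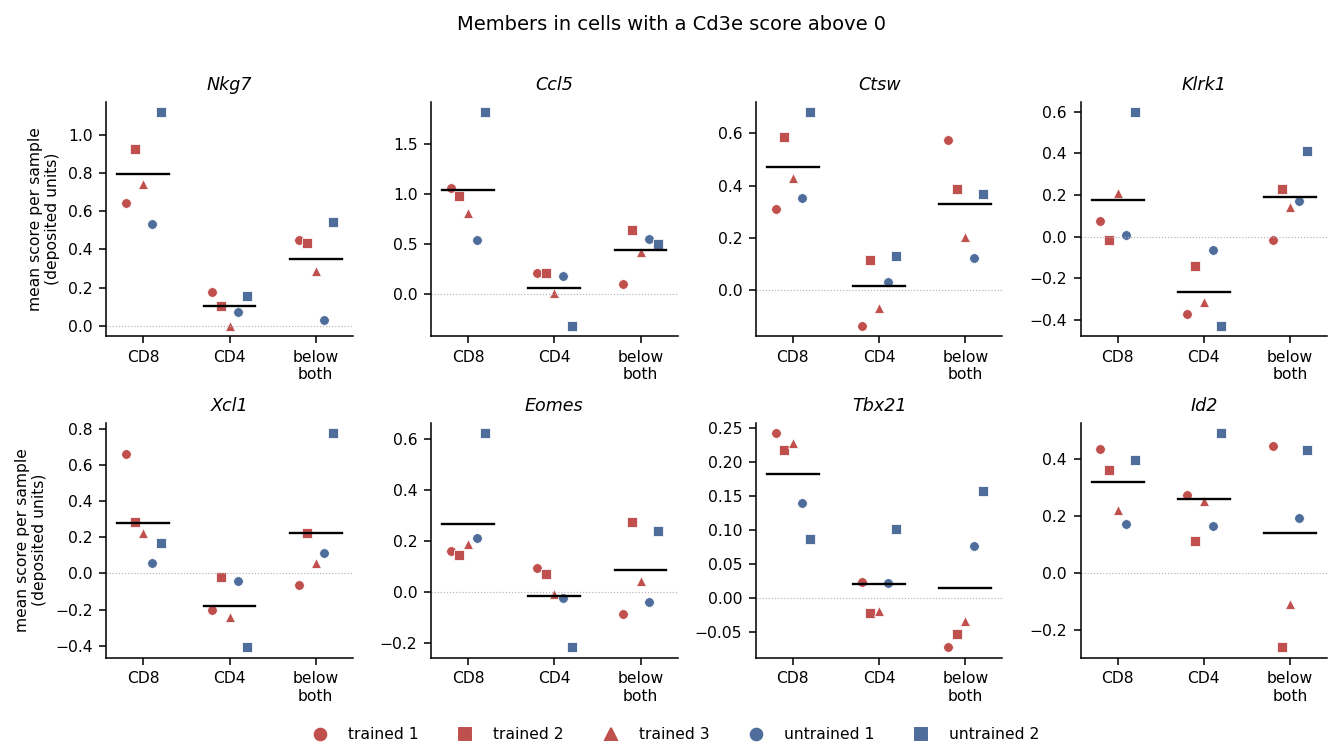
Mean score of each member per sample (deposited units, scaled separately for each gene) in cells with a Cd3e score above 0, for CD8-gated, CD4-gated and below-both cells, with the mean of 5 samples as a black line. Klrk1 in the cells below both gates stands above the CD4-gated cells in every sample, while Xcl1 below both gates is highest in untrained 2 and overlaps both gated classes.

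The 57 cells above both gates were few and uneven, with 2 cells in trained 2 and 21 in untrained 1. They carried Nkg7 at 0.669 ± 0.408, Ccl5 at 0.407 ± 0.342, Ctsw at 0.263 ± 0.371 and Id2 at 0.224 ± 0.285. Klrk1 (0.0555 ± 0.216), Xcl1 (0.0211 ± 0.170), Tbx21 (0.0115 ± 0.194) and Eomes (-0.0703 ± 0.108) lay nearer to 0. In order of the means, Nkg7 ran above both, CD8-gated, CD4-gated, below both. The first 2 of these classes overlapped in their sample means, as did the last 2. This order was not tested for the cells above both gates, and doublets could not be called from scores.

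Other genes of the cytotoxic programme followed the members in part. Of a list of 31 further cytotoxic genes 10 were measured, and 6 were higher and 4 lower in CD8-gated than in CD4-gated cells, with 1 called. That was Ly6c2, a surface marker of effector and memory CD8 T cells (difference 0.409 ± 0.067, SE, limma adjusted p = 0.0133), beside a background of 0.171%. Klrd1 gave 0.289 ± 0.063 (adjusted p = 0.106), and Lamp1, a lysosomal membrane protein exposed on degranulation, gave -0.227 ± 0.066 (adjusted p = 0.184). The median over the 10 genes was 0.115, against -0.0270 over all genes. Of 32 further transcription factors of effector and memory cells 18 were measured, 7 higher and 11 lower with 0 called and a median of -0.0379. Maf, a factor of helper cells, had the smallest p (-0.373 ± 0.078, adjusted p = 0.0936), and Gata3 gave -0.160 ± 0.059 (adjusted p = 0.271). Runx3 gave -0.0456 ± 0.0695 (adjusted p = 0.826). Among 10 partners of the members 3 were measured and 0 called. Tyrobp gave -0.188 and Hcst, the adaptor of NKG2D, 0.0223. None of the 3 E proteins that Id2 binds was in the table.

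Members were next set against each other over cells. Within each sample, Pearson's r was taken over cells after the mean over all genes of each cell had been removed by regression, and the 5 values of r were averaged. This step matters, since r with the cell mean was 0.596 for Nkg7, 0.530 for Id2, 0.520 for Ccl5 and 0.502 for Ctsw, against a median of 0.313 over all genes. Cells of a sample share a plate and its processing, and no p is given.

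The closest pair of members was Nkg7 and Ccl5, with a mean r of 0.400 and values from 0.298 in trained 1 to 0.448 in trained 3. Ccl5 was the gene most like Nkg7 among 2925, and Nkg7 was the 2nd most like Ccl5. Ctsw joined both, with 0.311 to Ccl5 and 0.281 to Nkg7, which were its 1st and 2nd genes. Klrk1 and Xcl1 formed the next pair, at 0.302 with values from 0.209 to 0.391. Xcl1 was the gene most like Klrk1, and Klrk1 was the 6th most like Xcl1. Ccl5 and Xcl1, the chemokines, reached 0.254. As deposited, without removal of the cell mean, r was 0.585 for Nkg7 and Ccl5 and 0.373 for Klrk1 and Xcl1.

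The T-box factors and Id2 gave lower r with the effectors than Nkg7, Ccl5 and Ctsw gave with each other. Eomes and Tbx21 gave a mean r of 0.109, ranging from -0.105 in trained 2 to 0.462 in trained 1, and without trained 1 the mean was 0.0212. The highest r of Eomes with an effector was 0.145 with Nkg7, and that of Tbx21 was 0.148 with Ctsw. Id2 ranged from -0.0555 with Klrk1 to 0.122 with Nkg7. For comparison, the 95th percentile of r over all genes was 0.0948 for Eomes, 0.101 for Tbx21, 0.0981 for Id2 and 0.133 for Nkg7. The highest r of each of the 3 regulators thus lay above its own 95th percentile. Each is the highest over several effectors set against a percentile for single genes, so this is no test. The lowest r with an effector was 0.0388 for Eomes (with Xcl1), 0.0631 for Tbx21 (with Xcl1) and -0.0555 for Id2 (with Klrk1). As deposited, Id2 reached 0.399 with Nkg7, 0.350 with Ccl5 and 0.304 with Ctsw, above 0 in 5 of 5 samples. The size of its r thus depends on removal of the cell mean. The order does not: as deposited, Nkg7 gave 0.585 with Ccl5 and 0.496 with Ctsw, and Ccl5 gave 0.491 with Ctsw. Weak r in sparse scores is no finding.

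Inside the coreceptor classes the pairs differed. Nkg7 and Ccl5 varied together in each class, with a mean r of 0.343 in CD8-gated, 0.425 in CD4-gated and 0.232 in cells below both gates, and r was above 0 in 5 of 5 samples in each. Klrk1 and Xcl1 gave a mean r of 0.243 in CD8-gated, 0.407 in CD4-gated and 0.321 in cells below both gates. The CD4-gated value leaned on untrained 2, where 0 of 28 cells had both genes above 0 and r was 1.000 among scores below the baseline. Without untrained 2 the mean was 0.259. It too rested on few cells, as both genes were above 0 in 1 CD4-gated cell of each trained sample and in 5 of untrained 1. Ctsw followed Nkg7 in CD4-gated cells (0.455, from 0.214 to 0.604) and below both gates (0.198, or 0.112 without untrained 2), but in CD8-gated cells r was -0.0118, with values from -0.197 in trained 2 to 0.166 in untrained 2. Ctsw with Ccl5 likewise gave 0.368 in CD4-gated, 0.306 below both and 0.00565 in CD8-gated cells. These CD8-gated values depend on removal of the cell mean: as deposited, Ctsw in CD8-gated cells gave 0.354 with Nkg7 and 0.280 with Ccl5, above 0 in 5 of 5 samples. In CD4-gated cells the deposited scores gave 0.553 with Nkg7 and 0.470 with Ccl5. The differences in r between classes were not tested. The classes held 16 to 124 cells per sample.

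**Figure D4:**
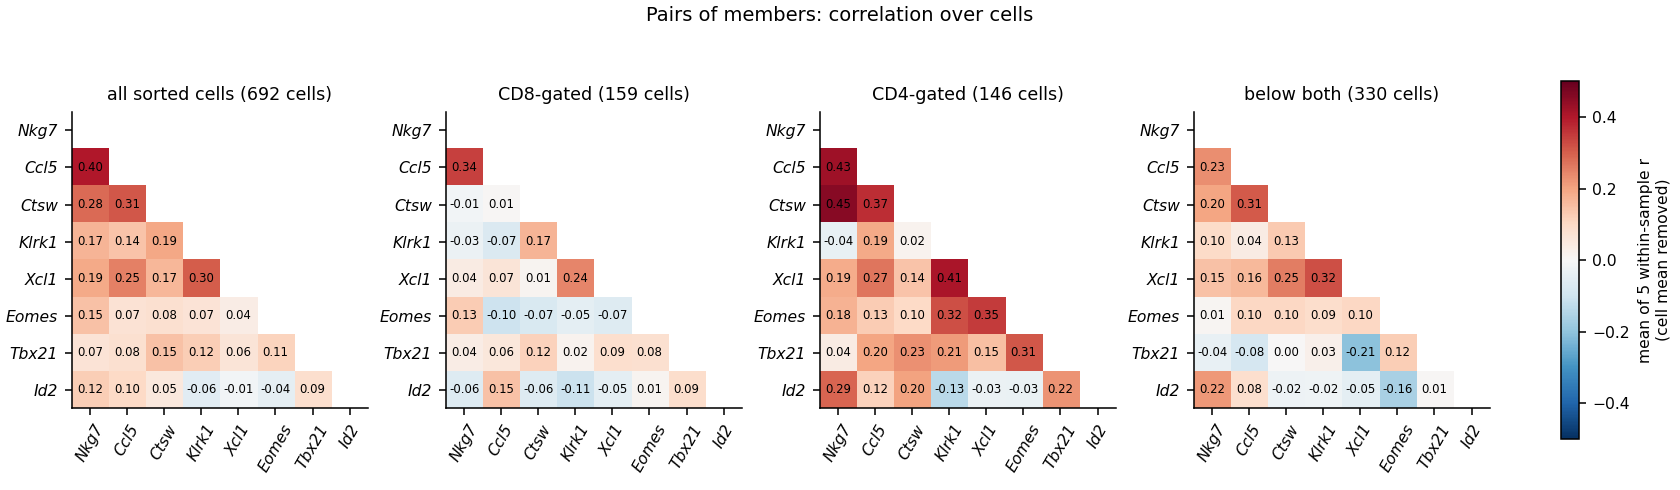
Mean of the 5 within-sample correlations for each pair of members, cell mean removed, in all sorted cells and in 3 coreceptor classes, on a colour scale from -0.5 (blue) to 0.5 (red). Nkg7 with Ccl5 and Klrk1 with Xcl1 are above 0.2 in all 4 panels, while Ctsw is near 0 with Nkg7 and Ccl5 in CD8-gated cells, where the deposited scores gave 0.354 and 0.280. The CD4-gated value of Klrk1 with Xcl1 rests on few cells with both genes above 0.

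Outside the members, the genes most like each one were as follows, by mean r. Nkg7 was nearest to Tmsb10 (0.331), which encodes a small actin-binding protein, and to Cd8b1 (0.322). Ccl5 was nearest to the ribosomal protein genes Rpl32 (0.402) and Rps21 (0.386). Ctsw was nearest to the chemokine receptor gene Cxcr6 (0.251), Sema4a (0.246) and Ly6c2 (0.226). Klrk1 was nearest to Ly6c2 (0.284), Klrd1 (0.251) and Cd7 (0.246), a surface protein of T and natural killer cells. Xcl1 was nearest to Cd7 (0.375), Klrd1 (0.345) and Rplp1 (0.321), so Klrk1 and Xcl1 shared both. Eomes was nearest to Cd8a (0.206), Mllt6 (0.185) and Pde4b (0.179). Tbx21 was nearest to Satb1 (0.210), Med12 (0.206) and Edf1 (0.205), and Id2 to Cxcr6 (0.264), Sec24c (0.231) and the chemokine receptor gene Cxcr3 (0.225). With each sample left out in turn, Tmsb10 for Nkg7, Ly6c2 and Klrd1 for Klrk1, Cd7 and Klrd1 for Xcl1 and Cxcr6 for Id2 stayed among the top 3 in 5 of 5 cases. None of the 3 genes named for Tbx21 did so without trained 1 or without trained 2. Cd8a and Cd8b1 also set the gates.

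Training was compared over samples, trained minus untrained. With 3 against 2 samples an exact permutation test of 1 value cannot go below p = 0.1, and with limma 0 of the 8 members passed in any of the 5 comparisons. Over all sorted cells 0.00% of 2926 genes were called (226 at an unadjusted p under 0.05), as in CD8-gated (261) and CD4-gated cells (71). In untrained 2 alone, 1607 genes, Eomes and Tbx21 among them, had a mean over all sorted cells of 0 within 1e-06. There 1319 genes had their highest value at the cap. For the centred genes the comparison over all sorted cells thus held a fixed value in 1 of the 2 untrained samples. Below both gates 0.444% were called (13 genes, 378 at an unadjusted p under 0.05). The member with the smallest p was Nkg7 over all sorted cells, at an unadjusted p of 0.00452.

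Over all sorted cells Nkg7 stood at 0.179, 0.170 and 0.142 in trained 1, 2 and 3 and at 0.0988 and 0.0585 in untrained 1 and 2 (difference 0.0851 ± 0.0239, SE, limma adjusted p = 0.456). Ccl5 stood at 0.182, 0.277 and 0.173 in trained and 0.152 and 0.0684 in untrained samples (difference 0.101 ± 0.035, adjusted p = 0.518, or 0.0587 without untrained 2 and 0.0671 without trained 2). Klrk1 ran the other way, with -0.145, -0.129 and -0.0969 in trained and -0.0714 and -0.0521 in untrained samples (difference -0.0618 ± 0.0237, adjusted p = 0.559). These 3 of 8 members did not overlap between the groups, as did not 25.1% of all genes. That share was taken over all genes, with those centred at 0 in untrained 2 included. The share of CD8-gated cells was 25.8%, 27.4% and 23.8% in the trained samples and 25.0% and 16.8% in the untrained ones, and its part in these values was not tested.

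In CD8-gated cells Xcl1 stood at 0.405, 0.167 and 0.0998 in trained and at -0.0667 and 0.0547 in untrained samples (difference 0.230 ± 0.087, SE, limma adjusted p = 0.521, or 0.139 without trained 1). Id2 stood at 0.200, 0.254 and 0.200 in trained and at 0.0572 and 0.0262 in untrained samples (difference 0.176 ± 0.075, adjusted p = 0.537). Tbx21 gave 0.185, 0.171 and 0.168 in trained and 0.0685 and 0.000272 in untrained samples. The groups of these 3 members did not overlap, beside 25.1% of all genes, and the other 5 overlapped. The median difference over all genes was 0.0457 in this class. All 10 measured genes of the further cytotoxic list had a higher trained mean (median 0.108), with 0 called. The lean was not particular to that list. In this class 16 of 18 measured transcription factors (median 0.0593), all 3 measured partners and 6 members also had a higher trained mean.

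In CD4-gated cells 0 of the 8 members separated the groups, against 14.5% of all genes. Id2 was the member with the largest difference there, with 0.108, 0.0807 and 0.0396 in trained and 0.0779 and 0.401 in untrained samples, and untrained 2 stood above the other 4 samples, whose values overlapped between the groups. The training difference of Id2 in CD8-gated minus CD4-gated cells was 0.340 ± 0.134 (SE, limma adjusted p = 0.758), or 0.163 without untrained 2 and 0.516 without untrained 1, and 0 of 2923 genes passed that test (173 at an unadjusted p under 0.05).

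Below both gates 6 of 8 members did not overlap between trained and untrained samples, where 32.6% of all genes did not. Ctsw was higher in trained cells (-0.0170, -0.0585 and -0.0591, against -0.122 and -0.173 in untrained; difference 0.103 ± 0.043, SE, limma adjusted p = 0.331), and Nkg7 lay from -0.0731 to -0.0353 in trained and from -0.110 to -0.0931 in untrained samples. Klrk1 was lower in trained cells (-0.266, -0.208 and -0.110, against -0.0865 and -0.0541 in untrained; difference -0.124 ± 0.049, adjusted p = 0.299). Id2 was lower too, at -0.171, -0.344 and -0.214 in trained and -0.143 and -0.106 in untrained samples (difference -0.118 ± 0.051, adjusted p = 0.343, or -0.0677 without trained 2). So was Xcl1 (-0.100 ± 0.045, adjusted p = 0.353), and Tbx21 lay from -0.0568 to -0.0195 in trained and from -0.0180 to -0.0167 in untrained samples. Untrained 2 held 124 of the 330 cells and 36 macrophage-high ones, and the mean over all genes in this class ran from -0.120 to -0.0848 in trained and from -0.0746 to -0.0635 in untrained samples. Their part in these values was not tested.

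**Figure D5:**
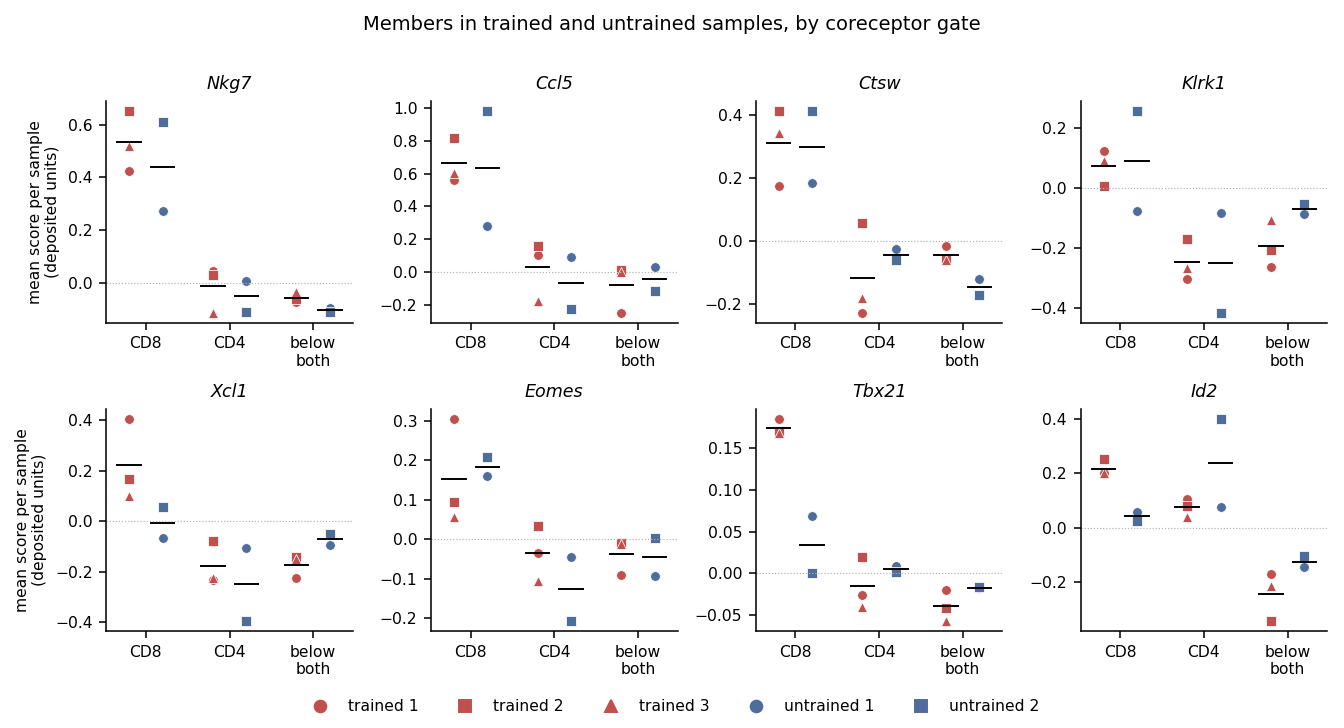
Mean score of each member (deposited units, scaled separately for each gene) in trained samples (red, left of each pair) and untrained samples (blue, right) for CD8-gated, CD4-gated and below-both cells, with group means as black lines. Xcl1, Tbx21 and Id2 separate the groups in CD8-gated cells, beside 25.1% of all genes. In CD4-gated cells 0 members do so, beside 14.5% of all genes. Below both gates all members but Ccl5 and Eomes do so, beside 32.6% of all genes. Of these differences 0 passed the adjusted threshold.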

How the data were processed

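CD3+ T cells sorted from the brains of 3 trained and 2 untrained samples had been profiled by SORT-seq. Per the submitters' processing notes the reads passed through Cell Ranger, version not given. For the aligner settings, genome build and normalisation the entry is: not given in the sources used here. The deposited table holds a score per gene and cell, 2926 mouse genes and 41 spike-ins by 692 cells. In untrained 2 alone, 1607 genes had a mean of 0 within 1e-06 and 1319 had their highest value at the cap. Scores centred and capped in this way compress differences. Cells were assigned to samples by the number in their names. Well names recur between samples (221 of 331 names) and 0 columns were identical.

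Gates were set at 0, with 0.25 as an alternative. Cells whose mean score of the macrophage genes Cst3, C1qb, Apoe and Ctss, or of Kcnq1ot1 and A630089N07Rik, exceeded 1 were called high. Mean scores per gene, sample and class were fitted with limma (3.58.1, R 4.3.3), two-sided. Adjusted p is by Benjamini-Hochberg across every gene fitted, called under 0.05. Sample was a block between classes, where Cd4, Cd8a and Cd8b1 were left out. The scripts were tested on simulated data. The depth per sample is unknown. Correlations used Python 3.11.15. A repeated table headed by barcodes was not used.

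The named genes are the 8 members, the 3 genes most like each one, and the 3 with the smallest p in each list; some genes that this rule names are not reported here. Training differences are given as fits for members at an unadjusted p under 0.05. Members and lists were chosen with earlier results of these data known. The alternatives rescaled scores, took medians, weighted samples, subtracted cell means, left out cells or a sample, or dropped the block.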

Additional observations from a re-analysis of the deposited data

Results flagged for a closer look

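Of 56 sets of 5 sample values tested for a sample standing apart (each member's mean by class and its differences between classes), 1 was flagged, and chance flags about 1 set in 20. In CD4-gated cells Id2 was 0.401 in untrained 2, while the nearest other sample had 0.108 and the lowest 0.0396. The gap was 0.812 of the whole range, above the critical value of 0.710. Untrained 2 held 28 CD4-gated cells, and their mean over all mouse genes, 0.110, was also above that of the other samples, which ran from 0.00744 to 0.0705. The part of that level in the Id2 value was not tested.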

How the results depend on the processing

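Between CD8-gated and CD4-gated cells 3 members and 5 genes passed. The counts were 6 members and 53 genes with scores divided by their SD, 0 and 0 with medians over cells (the smallest adjusted p was 0.0879), and 0 and 0 without macrophage-high cells (0.0614). They were 5 members and 31 genes without noncoding-high cells, 5 and 30 without the sample block, 3 and 10 with the cell mean subtracted and 2 and 2 among cells with Cd3e above 0. Leaving out each sample gave 0 to 4 members and 0 to 7 genes: 0 members without trained 1, Nkg7 without trained 2, Nkg7 and Ccl5 without trained 3. Nkg7, Ccl5 and Ctsw were higher in CD8-gated cells under all 14 alternatives, at 0.475 to 0.693, 0.521 to 1.04 and 0.294 to 0.605. Id2 changed sign without macrophage-high cells (-0.0599) and ranged from -0.0356 to 0.101 with a sample left out. The causes of these changes were not tested.

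Between CD8-gated cells and those below both gates (8 members, 1088 genes), the counts were 2 members and 190 genes with medians, 4 and 415 with the cell mean subtracted, 4 and 278 without noncoding-high cells, and 2 and 54 with Cd3e above 0 in every class. With Cd3e above 0 asked of the cells below both gates alone, 0 members and 0 genes passed and Ctsw (-0.0261), Klrk1 (-0.110) and Xcl1 (-0.0904) changed sign; that choice raises 1 class only. Klrk1 was -0.0130 with Cd3e above 0 in every class. Leaving out a sample gave 6 to 8 members and 556 to 1443 genes. Between CD4-gated cells and those below both gates (1 member, 1659 genes), the counts were 4 and 460 with the cell mean subtracted and 2 and 523 without noncoding-high cells. They were 0 and 0 in both settings that use Cd3e, and 411 genes with medians. Klrk1 (0.0469), Xcl1 (0.0740) and Eomes (0.0305) changed sign with medians, and Id2 was -0.000420 with Cd3e above 0 below both gates. Eomes ran from -0.0544 to 0.0124 with a sample left out.

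For training, 0 members passed under any alternative run. In CD8-gated cells 9 genes and in CD4-gated cells 2 genes passed with medians. Below both gates (13 genes) the count was 7 with medians, 138 with samples weighted by cells, 21 with the cell mean subtracted, and 0 with scores divided by their SD, without macrophage-high cells, without noncoding-high cells or with Cd3e above 0. Xcl1 changed sign there with medians (0.0362). Leaving out a sample gave 0 to 3 genes over all cells, 0 to 8 in CD4-gated cells, 2 to 32 below both gates and 0 to 10 for the difference between classes. No paired analysis was possible because the labels give no replicate numbers shared by trained and untrained samples; classes of the same sample were already blocked.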
